A study of Mus musculus with 13 samples.

Results

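The satellite glia genes *Apoe*, *Fabp7*, *Sparc* and *Vim* and the myelin genes *Mbp* and *Pmp22* were followed across the wells of 13 plates of sorted mouse proprioceptors. They were taken as a named list, 6 of the 50508 genes in the count tables, of which 30658 had a molecule in any well, and all 6 had a row in the table of every plate. In mm10, *Apoe* lies on chromosome 7 (19696244 to 19701310), *Fabp7* on chromosome 10 (57784923 to 57788450), *Sparc* on chromosome 11 (55394159 to 55420080), *Vim* on chromosome 2 (13574311 to 13582826), *Mbp* on chromosome 18 (82475091 to 82585637) and *Pmp22* on chromosome 11 (63128982 to 63159547). The wells were those with at least 2000 genes above 0, which were 1137 of the 1248 wells, and each was either kept in the deposited annotation of neurons (586 wells) or left out of it (551 wells). Single tdTomato+ cells of dorsal root ganglia (DRG) were sorted by fluorescence into 96-well plates, their RNA was tagged with well barcodes and unique molecular identifiers (UMIs), and counts were UMIs per gene and well. Adult (older than p56; 5 plates), p12 (4 plates) and p0 (2 plates) animals carried *PV:Cre*+/-, *Rx3:Flp*+/- and the *Ai65*+/- reporter (*PVRx3:tdT*), in which tdTomato needs both the parvalbumin and the Runx3 driver at some stage. The e14.5 cells (2 plates) came from *TrkC:tdTomato* embryos, so that stage and reporter allele cannot be told apart in any comparison with e14.5. Cells were pooled from animals of either sex, the labels do not tie animals to plates, and the plate was the replicate throughout, so that p-values measure the spread between plates, which may be technical. By the study's account the adult neurons came from fewer experiments than the 5 adult plates, so that these plates are not all separate preparations.

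Satellite glia wrap the cell bodies of DRG neurons, and Schwann cells wrap their axons, where the myelinating ones build compact myelin. *Apoe* encodes a lipid-carrying apolipoprotein and *Fabp7* a fatty acid binding protein of radial and satellite glia. *Sparc* encodes a secreted matrix glycoprotein and *Vim* an intermediate filament of glial, connective tissue and immature nerve cells. *Mbp* and *Pmp22* encode proteins of the myelin sheath. The study set wells aside by satellite and Schwann cell genes, *Apoe* among them. By its supplement, cells of the smallest clusters were also dropped at p12, p0 and e14.5. Wells left out at these stages need therefore not be rich in glial genes.

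*Apoe* and *Fabp7* were the pair of the 6 genes with the highest r from well to well as a mean over the plates of adult, p12 and p0 (on 4 of these 11 plates r was higher for *Apoe* and *Sparc*), and the bases from 250 to 51 before a RefSeq start of each are shown for that reason, 5′ to 3′ on the strand of the gene (GRCm38.p6). The *Apoe* window (chr7:19699239-19699438, minus strand) was taken for 1 of the 3 *Apoe* starts in the sequence table, the one farthest upstream of the 3. The annotated span of *Apoe* reaches farther upstream than this window, which overlapped no exon. The *Fabp7* window (chr10:57784673-57784872, plus strand) overlapped no exon either. Capitals mark the one match to a SOX-type motif, searched on both strands as ACAAAG or ACAATG.
Apoe: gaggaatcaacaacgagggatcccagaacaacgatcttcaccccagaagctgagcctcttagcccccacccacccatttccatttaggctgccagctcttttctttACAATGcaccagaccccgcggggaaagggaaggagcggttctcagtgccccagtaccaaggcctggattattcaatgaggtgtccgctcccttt
Fabp7: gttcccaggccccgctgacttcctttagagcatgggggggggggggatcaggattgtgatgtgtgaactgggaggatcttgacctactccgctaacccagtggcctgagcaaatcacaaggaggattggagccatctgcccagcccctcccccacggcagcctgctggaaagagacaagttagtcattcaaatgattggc
One or the other form of this motif was found in 21.2% of the 32851 windows of this length, ACAATG alone in 8.94%, so that a match in 1 of the pair is a description of the letters and no more. The pair shared no match to the TATA form TATAAA, which neither window held and 9.14% of all windows did.

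Plates held between 915750 and 5554918 UMIs, and the same 96 barcodes were used on every plate. Several plates stood apart before any glial gene was compared. Adult replicate 5 had 77.5% of its wells left out, against 43.5% to 54.5% on the other 4 adult plates, and p12 replicates 1 and 2 had 86.4% and 85.6% left out, against 30.2% and 35.4% on p12 replicates 3 and 4. The deposited clusters followed plates as well, with p12 clusters 2 and 3 made only of wells of replicates 1 and 2 and p12 clusters 1, 4 and 5 only of wells of replicates 3 and 4. Kept wells had the markers of proprioceptors: the summed level of *Pvalb* and the 5 other genes of that list averaged 3244 counts per 1000000 UMIs (CPM) in adult, 4362 in p12 and 5089 in p0 kept wells, and 2997, 3954 and 4583 in the wells left out, with none of the 6 genes at 0. Of 8 macrophage genes, *Csf1r*, *C1qa*, *C1qc*, *Tyrobp* and *Aif1* were at 0 in kept and left-out wells of all 3 stages.

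*Apoe* was among the genes that set the left-out wells apart, and its values therefore only describe them. Of the 551 wells left out, 474 lay above the highest kept well for *Apoe* and 77 within the kept range. The highest kept wells held 1946, 1952 and 1967 CPM of *Apoe*, and the lowest left-out wells above them held 1971, 1988 and 1996. Taken stage by stage, the other 5 genes separated the wells less. In adult, 35 of the 242 left-out wells lay within the range of the adult kept wells for *Fabp7*, 78 for *Sparc*, 114 for *Vim*, 238 for *Mbp* and 241 for *Pmp22*, against 18 for *Apoe*. In p12 (216 left-out wells) the counts were 102, 59, 108, 199 and 214, against 16 for *Apoe*. In p0 (92 left-out wells) they were 83, 84, 91, 84 and 90, against 40 for *Apoe*. The p0 kept ranges of *Apoe* and *Fabp7* reached that high only through kept wells of p0 cluster 3. The highest well of p0 cluster 1 held 200.1 CPM of *Apoe* and 267 of *Fabp7*. Plate means of p0 cluster 2 were 20.1 and 63.0 for *Apoe* and 21.2 and 26.4 for *Fabp7*.

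The share of wells left out was 53.8% in adult (242 of 450), 58.4% in p12 (216 of 370), 62.6% in p0 (92 of 147) and 0.588% at e14.5 (1 of 170; exact 95% binomial interval 0.0149% to 3.23%, counting error only). Together the 6 genes made up 0.963% ± 0.212 of the UMIs of left-out wells in adult (SD, n = 5 plates), 0.802% ± 0.127 in p12 (n = 4) and 0.417% ± 0.0456 in p0 (n = 2). In kept wells they made up 0.0525% ± 0.0215, 0.0432% ± 0.0201 and 0.0668% ± 0.00949. The p0 value rests on the 8 kept wells of cluster 3 in the deposited annotation, and without them it was 0.0139% ± 0.000950, the lowest of the 3 stages instead of the highest. The highest single well reached 2.35%, in an adult well left out.

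*Apoe* had the most UMIs of the 6 on every adult, p12 and p0 plate, in kept and in left-out wells, and since a UMI counts a molecule whatever its length, these levels can be set beside each other. Its mean CPM per adult plate was 6349, 5288, 6106, 8331 and 9539 in left-out wells and 244, 347, 263, 315 and 651 in kept wells, in the order of replicates 1 to 5. On p12 plates it was 6778, 6167, 4603 and 4536 in left-out wells and 408, 331, 109.7 and 146 in kept wells, and on p0 plates 1913 and 2314 against 246 and 336. The plate means of left-out and kept wells did not overlap at any of these stages, and the median fold over plates was 23.3 in adult, 24.9 in p12 and 7.34 in p0. Adult replicate 5 was the highest plate in both kinds of well, and p12 replicates 1 and 2 were above replicates 3 and 4 in both.

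*Fabp7*, the fatty acid binding protein, had 1579, 1402, 1161, 1479 and 2343 CPM in left-out wells of the adult plates and 32.8, 52.6, 42.1, 39.4 and 131 in kept wells. On p12 plates it had 1591, 1690.5, 1848 and 1846 CPM in left-out wells and 82.5, 108, 32.1 and 65.9 in kept wells. On p0 plates it had 1335 and 1569 in left-out wells and 216 and 263 in kept wells. The p0 kept means rest on the 8 wells of p0 cluster 3 among the 55 kept wells, and without these 8 they were 29.6 and 22.0 CPM, below every adult and p12 plate. The plate means of left-out wells thus lay between 1161 and 2343 CPM of *Fabp7* over the 3 stages. The median fold was 27.5, 23.7 and 6.08. The p0 folds of all 6 genes include the 8 wells, and without them those of the 2 p0 plates were 45.1 and 71.4 for *Fabp7* and 52.4 and 36.6 for *Apoe*.

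*Sparc*, the matrix glycoprotein, had 552, 493, 329, 458 and 448 CPM in adult left-out wells against 12.4, 21.2, 14.7, 21.8 and 35.2 in kept wells. On p12 plates the values were 480.1, 483, 221 and 228 against 30.8, 18.1, 7.45 and 7.41, and on p0 plates 226 and 271 against 40.7 and 30.9. Without the 8 kept wells of p0 cluster 3 the p0 kept means of *Sparc* were 1.77 and 1.98 CPM. In left-out wells p12 replicates 1 and 2 were at the level of the adult plates and replicates 3 and 4 at that of the p0 plates. *Vim*, the intermediate filament, had 391, 327, 270.3, 346 and 286 CPM in adult left-out wells against 42.0, 50.2, 41.9, 41.7 and 24.0 in kept wells. It had 278, 309, 143 and 139 against 57.9, 27.0, 15.9 and 7.95 in p12, and 241 and 228 against 52.5 and 78.6 in p0. The median *Vim* fold, 8.30, 10.2 and 3.74, was below that of *Sparc* (22.4, 28.2 and 7.17) at each stage. Without the 8 wells the folds of the 2 p0 plates were 128 and 136 for *Sparc* and 10.1 and 5.52 for *Vim*.

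The myelin genes were lower than the other 4 in left-out wells at each of the 3 stages, but not in kept wells, where adult *Pmp22* averaged 30.7 CPM against 21.0 for *Sparc*. *Mbp* had 63.2, 37.3, 51.3, 62.1 and 66.3 CPM in adult left-out wells and 6.93, 15.3, 10.4, 3.58 and 13.5 in kept wells. It had 98.7, 98.5, 42.2 and 59.8 against 16.0, 17.3, 21.3 and 19.2 in p12, and 58.1 and 61.6 against 21.2 and 22.6 in p0. Plate means of *Mbp* in left-out and kept wells did not overlap, although most single wells did, with median folds of 4.92, 4.40 and 2.73. *Pmp22* had 114, 69.1, 77.6, 67.5 and 71.3 CPM in adult left-out wells and 15.1, 46.1, 32.3, 22.3 and 37.6 in kept wells. It had 131, 109, 93.3 and 104 against 79.8, 13.9, 48.3 and 58.1 in p12, and 71.3 and 46.7 against 24.96 and 4.92 in p0. The *Pmp22* plate means did not overlap either, but its median fold was only 2.40 in adult and 1.86 in p12, with 6.17 in p0, where 1 kept plate held 4.92 CPM. All 6 genes were higher in left-out than in kept wells on 5 of 5 adult, 4 of 4 p12 and 2 of 2 p0 plates. The share of all genes higher on every plate, or without overlap of plate means, was not counted.

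**Figure D1:**
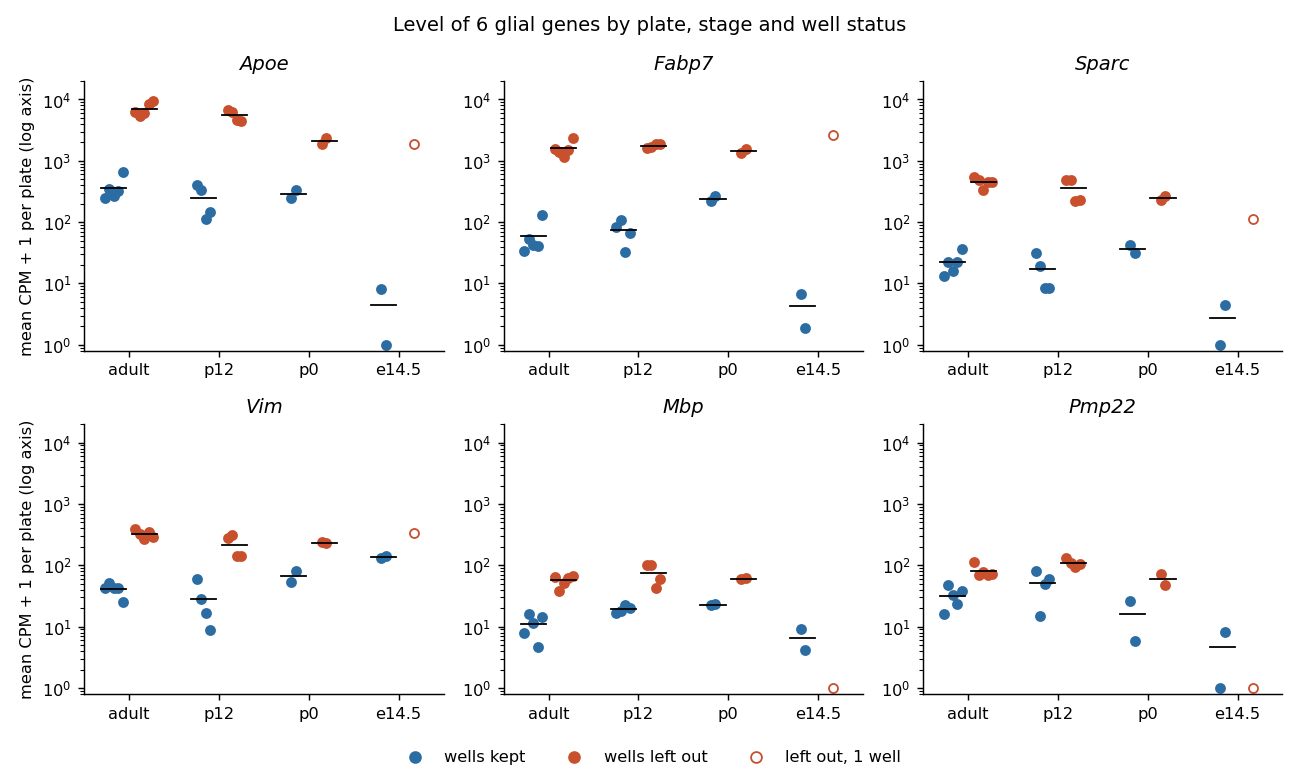
Mean CPM + 1 (log axis) of the 6 glial genes for each plate, by stage, with kept and left-out wells marked apart and 1 point for each plate. Left-out points lie above kept points in every PVRx3:tdT stage for all 6 genes, in adult by a median 23.3-fold for *Apoe* and 2.40-fold for *Pmp22* and in p0 by 7.34-fold and 6.17-fold, and among kept wells at e14.5 *Vim* alone is above 100 CPM (131 and 140.3).

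The difference between left-out and kept wells was tested on UMIs summed by plate and status, with plate as a block, over the 11 plates of adult, p12 and p0 (edgeR's quasi-likelihood test, Benjamini-Hochberg adjusted over 12632 genes). Because *Apoe* chose the wells and *Mbp* is named beside it in the study's methods, their fitted differences are given without a test. The wells were chosen by satellite and Schwann cell genes, *Apoe* among them, so that the tests of the other 4 describe genes that go with that choice. In adult, 8.81% of the genes tested were called higher in left-out wells and 6.48% lower. *Fabp7* was higher by 4.90 on the log2 scale (SE 0.14; adjusted p = 2.61e-19), *Sparc* by 4.66 (SE 0.14; adjusted p = 2.67e-19), *Vim* by 2.75 (SE 0.11; adjusted p = 3.63e-16) and *Pmp22* by 1.44 (SE 0.22; adjusted p = 1.95e-05). All 4 tested genes were thus called, with *Pmp22* moving least. *Apoe* differed by 4.43 (SE 0.13) and *Mbp* by 2.89 (SE 0.23).

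In p12, where 4.92% of the genes were called higher and 3.4% lower, *Fabp7* rose by 4.64 (SE 0.16; adjusted p = 6.45e-17), *Sparc* by 4.31 (SE 0.19; adjusted p = 5.77e-15), *Vim* by 2.65 (SE 0.17; adjusted p = 8.65e-12) and *Pmp22* by 1.10 (SE 0.24; adjusted p = 0.00315), all by edgeR. *Apoe* differed by 4.40 (SE 0.15) and *Mbp* by 1.93 (SE 0.24). The order of the 4 tested genes was therefore that of adult. In p0, where 2.05% were called higher and 0.681% lower, *Sparc* rose by 3.34 (SE 0.24; adjusted p = 6.06e-10), *Fabp7* by 2.87 (SE 0.19; adjusted p = 1.83e-10), *Pmp22* by 2.29 (SE 0.43; adjusted p = 0.00168) and *Vim* by 2.27 (SE 0.20; adjusted p = 2.34e-08). *Apoe* differed by 3.19 (SE 0.21) and *Mbp* by 1.64 (SE 0.31). Without the 8 kept wells of p0 cluster 3 the p0 values were 6.84 for *Sparc*, 5.75 for *Fabp7*, 3.02 for *Vim* and 2.61 for *Pmp22*, all still called (adjusted p of at most 0.00147, by edgeR), and 5.43 for *Apoe* and 1.85 for *Mbp*. Scaling by library size alone moved the split of calls, from 1113 higher and 818 lower to 1257 and 494 in adult, from 621 and 429 to 697 and 136 in p12, and from 259 and 86 to 282 and 48 in p0, while the 4 tested members stayed called higher.

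*Fabp7*, *Sparc* and *Vim* were called in all 23 alternative fits at each of the 3 stages, those without adult replicate 5, without adult replicates 1 and 2 and without either pair of p12 plates among them. *Pmp22* was called in 23 of 23 in adult, 20 of 23 in p12 and 21 of 23 in p0. In p12 its adjusted p was 0.0599 without replicates 1 and 2 (log2 difference 1.07) and 0.0479 without replicates 3 and 4 (1.20), and in p0 it was 0.0511 without replicate 2 (1.94).

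Whether the difference itself changed with age was tested in the same fit. Between adult and p12, 0.309% of the genes were called and none of *Fabp7* (0.27; SE 0.25; adjusted p = 0.908), *Sparc* (0.35; SE 0.31; adjusted p = 0.901), *Vim* (0.10; SE 0.23; adjusted p = 0.982) or *Pmp22* (0.34; SE 0.33; adjusted p = 0.917) was. Between p12 and p0, 0.253% were called, and *Fabp7* was one of them, its difference being larger in p12 by 1.76 (SE 0.27; adjusted p = 0.00208). *Sparc* (0.97; SE 0.40; adjusted p = 0.597), *Vim* (0.38; SE 0.29; adjusted p = 0.872) and *Pmp22* (-1.19; SE 0.52; adjusted p = 0.644) did not pass. The *Fabp7* call was made in 18 of 23 alternative fits and was lost without p12 replicates 3 and 4 (1.19; adjusted p = 0.105) and without p0 replicate 1 (1.71; adjusted p = 0.0607). It was also lost, with its direction turned, without the 8 kept wells of p0 cluster 3 (-1.12; adjusted p = 0.472), so that it rests on those wells.

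**Figure D2:**
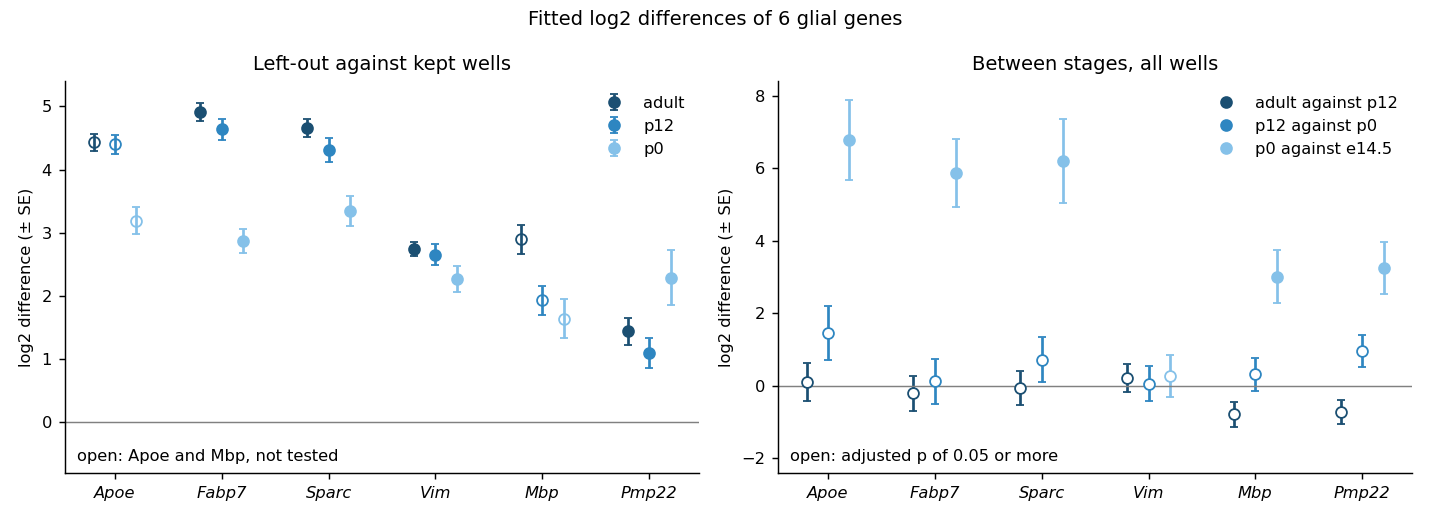
Fitted log2 differences of the 6 genes with SE bars, left-out against kept wells within adult, p12 and p0 on the left (open symbols for *Apoe* and *Mbp*, which were not tested) and between neighbouring stages over all wells on the right. On the left *Fabp7* stands at 4.90 and *Pmp22* at 1.44 in adult, and on the right the p0 against e14.5 differences lie far from 0 for every gene except *Vim* (0.27).

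Across single wells, *Apoe*, *Fabp7*, *Sparc* and *Vim* were high together. Pearson's r of log10(CPM + 1) within a plate, averaged over plates, was 0.89 in adult, 0.89 in p12 and 0.88 in p0 for *Apoe* and *Fabp7*, with adult plates at 0.86, 0.83, 0.92, 0.90 and 0.96. *Apoe* and *Sparc* had 0.87, 0.86 and 0.86, and *Fabp7* and *Sparc* 0.80, 0.85 and 0.87. *Vim* followed less closely, with 0.71, 0.75 and 0.56 for *Apoe*, 0.69, 0.74 and 0.57 for *Fabp7* and 0.69, 0.76 and 0.66 for *Sparc*. The 6 pairs among these 4 genes averaged 0.775 ± 0.038 in adult (SD over 5 plates), 0.810 ± 0.025 in p12 (n = 4) and 0.734 ± 0.062 in p0 (n = 2). These r are descriptions over 450, 370 and 147 wells that share plates, a total per well and, for left-out wells, the choice by glial genes, *Apoe* among them.

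The myelin genes were more loosely tied to the 4 and to each other. Pairs of *Mbp* or *Pmp22* with 1 of the 4 averaged 0.384 ± 0.091, 0.346 ± 0.191 and 0.427 ± 0.098, and *Mbp* with *Pmp22* had 0.26, 0.32 and 0.27. *Mbp* with *Apoe* had 0.49, 0.38 and 0.45, and *Pmp22* with *Apoe* 0.38, 0.37 and 0.51. On p12 plates these values followed the plate sets, at 0.64 and 0.56 for *Apoe* with *Mbp* on replicates 1 and 2 and 0.08 and 0.21 on replicates 3 and 4. *Apoe* with *Pmp22* behaved likewise there, at 0.53 and 0.58 against 0.15 and 0.22. A low r is hard to read for these genes, since a left-out adult well held on average 1.88 UMIs of *Mbp* and 2.44 of *Pmp22*, against 245 of *Apoe* and 53.7 of *Fabp7*.

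**Figure D3:**
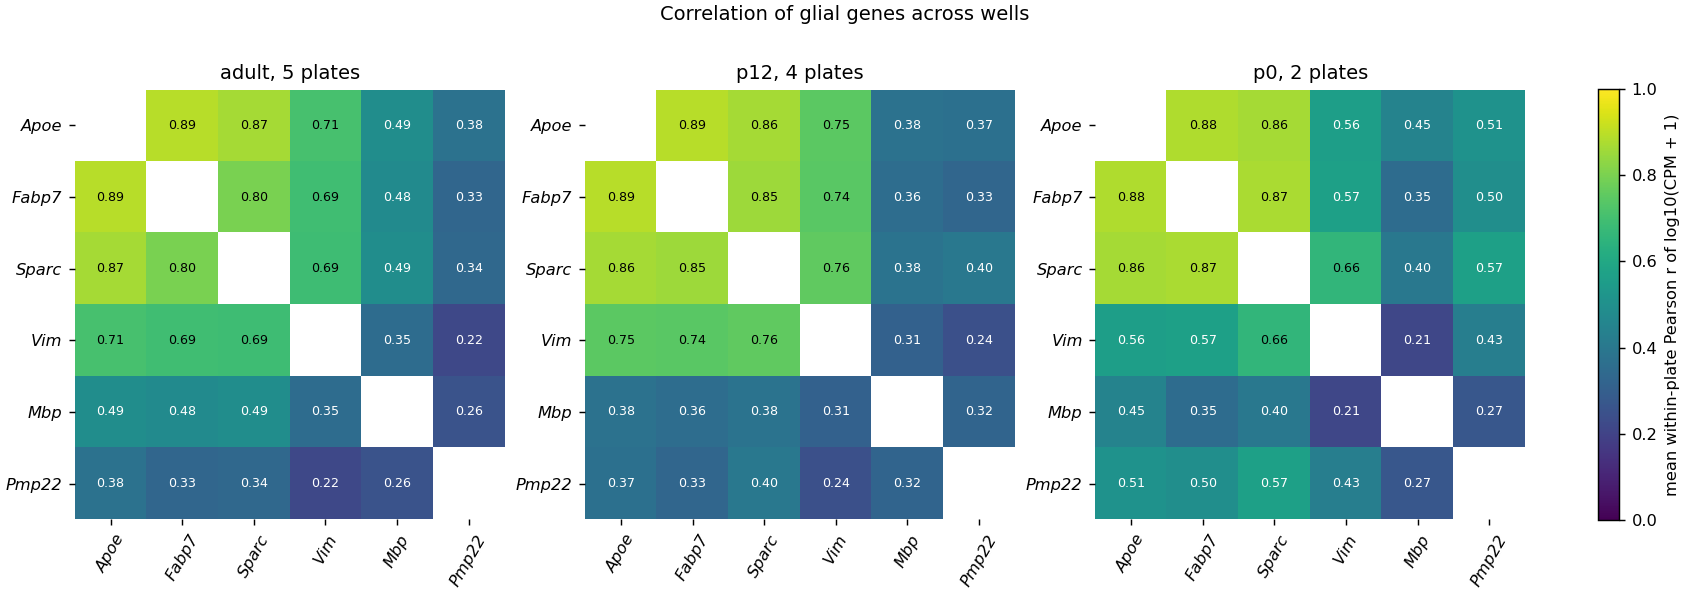
Mean within-plate Pearson r of log10(CPM + 1) for each pair of the 6 genes, 1 panel for each of adult (5 plates), p12 (4 plates) and p0 (2 plates). *Apoe*, *Fabp7*, *Sparc* and *Vim* form a block of high r in each panel (mean 0.775, 0.810 and 0.734), and the rows of *Mbp* and *Pmp22* are darker, at lower r.

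Left-out and kept wells differ in all 6 genes, so that r was also taken within each. Among left-out wells alone *Apoe* and *Fabp7* still had 0.87, 0.85 and 0.88 (adult, p12, p0), *Apoe* and *Sparc* 0.70, 0.63 and 0.64, and *Sparc* and *Vim* 0.57, 0.62 and 0.22. *Mbp* with *Pmp22* had 0.10, 0.30 and 0.06, and *Apoe* with *Mbp* 0.38, 0.25 and 0.09. The tie of *Apoe* and *Fabp7* was thus about as close within the left-out wells as over all wells. The other pairs given here were looser, though *Mbp* with *Pmp22* in p12 hardly moved (0.30 against 0.32 over all wells). A few wells at or near 0 can weigh on such an r. In p0, 91 of the 92 left-out wells had a UMI of *Apoe* and 89 of *Fabp7*, and r without such wells was not taken. Among kept wells alone *Apoe* and *Fabp7* had 0.45, 0.60 and 0.67 (0.29 in p0 without the 8 wells of cluster 3), *Apoe* and *Vim* 0.14, 0.28 and 0.13, and *Vim* and *Pmp22* -0.26, -0.16 and 0.34. With each well thinned to 7000 UMIs, *Apoe* and *Fabp7* had 0.75, 0.85 and 0.88, and *Mbp* and *Pmp22* 0.12, 0.19 and -0.03. The CPM of *Apoe* itself ran against the UMIs of a well, with a mean r of -0.207 over 11 plates.

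**Figure D4:**
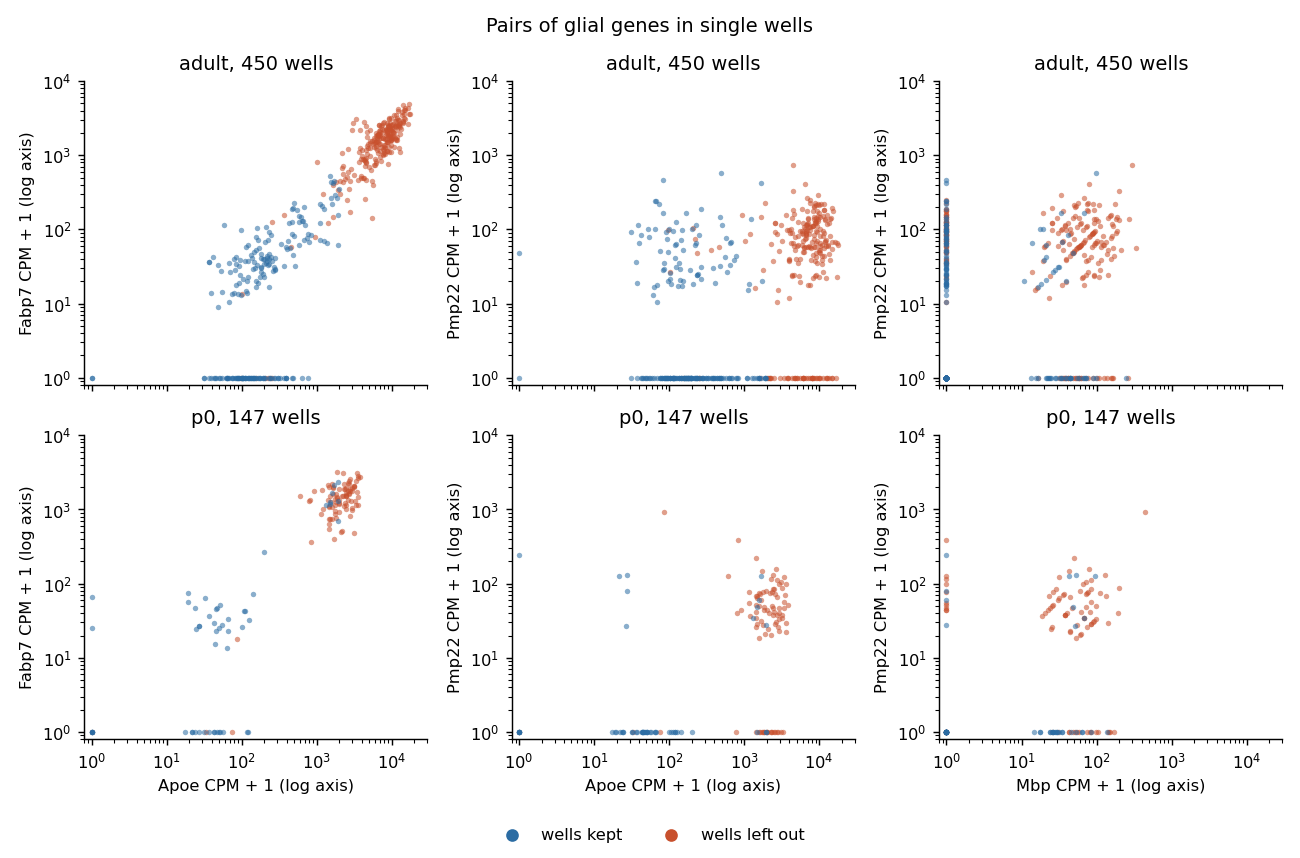
Single wells of adult (upper row) and p0 (lower row) plates, with CPM + 1 of one gene against another on log axes, kept and left-out wells in separate colours and wells at 0 drawn at 1. *Apoe* and *Fabp7* rise together over all wells (r = 0.89 in adult), more loosely among the kept wells alone (0.45), while *Mbp* and *Pmp22* scatter with many wells at 0 (r = 0.26 in adult).

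Wells were also counted by whether they held at least 1 UMI of each gene. All of *Apoe*, *Fabp7*, *Sparc* and *Vim* were found in 92.1% of left-out adult wells (223 of 242), 92.1% of p12 (199 of 216) and 93.5% of p0 (86 of 92), and in 18.3%, 9.09% and 16.4% of kept wells (38 of 208, 14 of 154 and 9 of 55, or 2 of 47 in p0 without the wells of cluster 3). All 6 genes were found in 57.0%, 70.8% and 63.0% of left-out wells and in 5, 4 and 2 kept wells. Median depth was 28951, 39778.5 and 36822 UMIs in left-out wells and 36926.5, 24462.5 and 41058 in kept wells, but on each of the 4 p12 plates the median was lower in left-out than in kept wells (57022.5 against 61464.5, 49129 against 50417, 22792 against 26411 and 18280 against 18852). With every well thinned to 7000 UMIs, *Fabp7* was found in 95.1% of left-out and 27.0% of kept adult wells, *Sparc* in 84.3% and 12.4%, *Vim* in 81.6% and 22.3%, *Pmp22* in 40.0% and 12.6% and *Mbp* in 29.5% and 4.66%. *Apoe* was found in 99.5% of left-out and still in 76.8% of kept adult wells at that depth, although kept wells are annotated as neurons. In p12 kept wells without any of the 4 genes were common, 69 of 154 (44.8%), against 1 of 208 in adult and 0 of 55 in p0. *Apoe* had a UMI in 100% of the kept wells of p12 replicates 1 and 2 and in 38.8% and 30.6% of those of replicates 3 and 4. On those kept wells a myelin gene could stand alone: *Mbp* or *Pmp22* without *Apoe* was found in 57 of the 154 kept p12 wells (37.0%), against 2 of 208 in adult.

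The wells highest for each gene were also shared between genes to a different degree. Of the 110 wells that were among the 10 highest of their plate for a gene (11 plates, where 10 wells are 10.4% to 14.1% of a plate), *Sparc* and *Vim* shared 61, *Apoe* and *Fabp7* 55, *Apoe* and *Sparc* 50 and *Apoe* and *Vim* 41. *Mbp* and *Pmp22* shared 28, and *Pmp22* shared 25 with *Apoe* and 17 with *Sparc* and with *Vim*. By stage, *Sparc* and *Vim* shared more than *Apoe* and *Fabp7* in p12 (27 against 17 of 40) but not in adult (26 against 29 of 50) or p0 (8 against 9 of 20).

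The genes most like each member in adult were sought among 8060 genes with a UMI in at least 25% of adult wells. The 3 closest to *Apoe* included *Fabp7* (mean r 0.894 over 5 plates) and *Dbi* (0.866), the acyl-CoA binding protein. Those of *Fabp7* included *Apoe* and *Dbi* (0.816), and those of *Sparc* included *Apoe* (0.865). *Vim* was closest to *Apoe* (0.709), *Gpm6b* (0.705), a membrane proteolipid, and *Fabp7* (0.694). The myelin genes had no such close partner: *Mbp* was closest to *Dbi* (0.531), *Mmd2* (0.508) and *Gpm6b* (0.501), and the 3 closest to *Pmp22* included *Dbi* (0.427). Among the 8060 genes, *Fabp7* ranked 1st by r with *Apoe*, *Sparc* 4th, *Vim* 27th, *Mbp* 95th and *Pmp22* 146th. *Pmp22* was 151st by r with *Mbp*.

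Single wells show how far the myelin genes can part from the rest, and the following were chosen after their values were seen. The adult well with the most *Apoe* (replicate 5) held 17767 CPM, 578 of its 32533 UMIs, together with 3566 CPM of *Fabp7* and 2613 of *Pvalb*, the calcium-binding protein that marks proprioceptors. The adult well with the most *Pmp22* (743 CPM, replicate 1) held 4532 CPM of *Apoe*, while the adult well with the most *Mbp* (335 CPM, replicate 1) held 55.8 of *Pmp22*. In adult the highest wells for *Mbp* and *Pmp22* were therefore different wells. In p12 replicate 1, 1 well was the highest of its stage for *Pmp22* (2396 CPM) and *Mbp* (842) and also held 12737 CPM of *Apoe* and 2094 of *Pvalb*. In p0 replicate 1, 1 well was the highest of its stage for *Pmp22* (933 CPM) and *Mbp* (441) but held only 85 CPM of *Apoe* (5 UMIs), 17 of *Fabp7* (1 UMI) and 0 of *Vim*. It also held 153 CPM of *Prx*, the periaxin of myelinating Schwann cells, and 3408 of *Pvalb*. The p12 well highest for *Sparc* (1593 CPM, replicate 2) was also the highest for *Vim* (819).

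Left-out wells differed by whether their *Apoe* lay above the kept range. In adult, the 18 wells within it had medians of 410 CPM of *Apoe*, 99.0 of *Fabp7* and 54.5 of *Pmp22*. The 224 wells above it had 7665, 1707 and 63.6. Median *Fabp7* was thus higher along with median *Apoe*, and median *Pmp22* differed much less between these wells. In p0 the 40 wells within the range had medians of 1478 CPM of *Apoe* and 1197.5 of *Fabp7*, and the 52 above it had 2686 and 1645. In adult kept wells the median was 165 CPM of *Apoe* and 26.1 of *Fabp7*, and in p0 kept wells 44.3 and 24.96.

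The ratio of the UMIs of *Apoe* to those of *Fabp7* averaged 4.68 ± 0.78 (SD, n = 5) in adult left-out wells, 3.37 ± 1.04 in p12 (n = 4) and 1.48 ± 0.04 in p0 (n = 2). The p0 plates lay below all others, but adult (4.01 to 5.66) and p12 overlapped, with 4.603 and 3.87 on p12 replicates 1 and 2 and 2.58 and 2.44 on replicates 3 and 4. In kept wells it was 6.68, 3.73 and 1.19, above that of left-out wells on 5 of 5 adult and 4 of 4 p12 plates and on 0 of 2 p0 plates. Without the 8 kept wells of p0 cluster 3 it was 1.31 and 2.74 on the p0 plates, below the left-out value on the first (1.46) and above it on the second (1.51). The ratio of *Apoe* to *Vim* was 22.2, 27.0 and 9.08 in left-out wells and 8.45, 9.36 and 4.73 in kept wells (1.68 in p0 without those 8 wells). The adult kept mean rests on replicate 5, with 3.88, 5.01, 6.68, 6.12 and 20.6 on replicates 1 to 5. The ratio was higher in left-out wells on all 11 plates. Kept wells thus held more *Vim* for their *Apoe* than left-out wells did, but *Apoe* was itself among the genes that chose the wells. These ratios were not tested.

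Over all wells, kept or left out, the 6 genes were compared between neighbouring stages on UMIs summed by plate (13 plates, 14648 genes, edgeR). In such sums fewer glia-rich wells and less glial RNA per well cannot be told apart. Between adult and p12, 15.6% of the genes tested were called but none of the 6. *Apoe* averaged 4169 ± 2058 CPM in adult (SD, n = 5) and 3600.3 ± 2342 in p12 (n = 4), a log2 difference of 0.11 (SE 0.53; adjusted p = 0.925), and *Mbp* 35.5 ± 11.3 and 58.8 ± 32.7 (-0.79; SE 0.35; adjusted p = 0.138). *Pmp22* averaged 56.0 ± 6.05 and 88.9 ± 27.0 (-0.73; SE 0.32; adjusted p = 0.145). *Fabp7* (-0.21; SE 0.48), *Sparc* (-0.06; SE 0.46) and *Vim* (0.21; SE 0.38) had SEs larger than their differences.

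These values moved with the plates used. *Apoe* over all wells was 5909, 5324, 1467 and 1701 CPM on p12 replicates 1 to 4, *Sparc* 419, 416, 71.9 and 85.5, and *Vim* 248, 268, 54.3 and 54.2, so that replicates 1 and 2 lay well above replicates 3 and 4 for each of these genes. Without p12 replicates 1 and 2, *Sparc* (1.53; adjusted p = 0.00695) and *Vim* (1.56; adjusted p = 0.000322) were called higher in adult than in p12. Without p12 replicates 3 and 4 they were not, and *Mbp* was called lower in adult (-1.27; adjusted p = 0.0175). *Mbp* was also called lower in adult without adult replicate 5 (-1.12; adjusted p = 0.0287). Among kept wells alone the fitted *Mbp* difference was -1.20 (SE 0.34), given without a test for the reason above. Of 7 connective tissue genes 5 were called between adult and p12 over all wells, all lower in adult, beside 15.6% of all genes called in either direction. The part of these genes in the values of *Sparc* and *Vim* was not tested. In the same comparison 2 of 3 red blood cell, 2 of 5 immediate early and 1 of 14 satellite genes were higher in adult and 0 lower. Of 9 sensory neuron genes 1 was higher and 2 lower, and of 6 proprioceptor genes 1 was higher and 1 lower.

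Between p12 and p0, 21.2% of the genes were called (1770 higher and 1332 lower in p12, or 1231 and 1628 with scaling by library size alone), again without any of the 6. *Apoe* averaged 1439 ± 292 CPM in p0 (SD, n = 2), 1.45 below p12 on the log2 scale (SE 0.73; adjusted p = 0.181), and *Fabp7* 1003 ± 176 against 1031 ± 457 in p12 (0.13; SE 0.62; adjusted p = 0.915). *Pmp22* differed by 0.95 (SE 0.44; adjusted p = 0.146), *Sparc* by 0.71 (SE 0.62; adjusted p = 0.452), *Mbp* by 0.31 (SE 0.45; adjusted p = 0.672) and *Vim* by 0.06 (SE 0.49; adjusted p = 0.951). Without p12 replicates 3 and 4, *Apoe* (2.09; adjusted p = 0.0334), *Sparc* (1.45; adjusted p = 0.0108) and *Vim* (0.74; adjusted p = 0.0225) were called higher in p12, and without replicates 1 and 2 *Vim* was called lower (-1.28; adjusted p = 0.00188). The *Vim* direction thus turned with the p12 plates used. Within left-out wells alone the fitted *Apoe* difference was 1.39 (SE 0.28), without a test since *Apoe* chose these wells. Within kept wells alone, where 18.1% of 11939 genes were called, *Fabp7* was lower in p12 than in p0 (-1.39; SE 0.43; adjusted p = 0.0367), but without the 8 wells of p0 cluster 3 the value was 1.55 and not called (adjusted p = 0.0656). *Sparc*, which was not called in kept wells (-0.40; adjusted p = 0.669), was then called higher in p12 (3.09; adjusted p = 0.0292).

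Between p0 and e14.5, 28.1% of the genes were called, 16.8% as higher in p0, and among the latter were 5 of the 6. *Apoe* was higher in p0 by 6.78 on the log2 scale (SE 1.10; adjusted p = 0.000768), with 1233 and 1645 CPM on the p0 plates and 31.7 and 0 on the e14.5 plates. *Fabp7* was higher by 5.86 (SE 0.94; adjusted p = 0.000741, by edgeR), with 879 and 1127 CPM against 40.6 and 0.883. Without that well the first e14.5 plate held 5.69 CPM of *Fabp7*. *Sparc* was higher by 6.20 (SE 1.15; adjusted p = 0.00187), but its e14.5 level rested on 4 UMIs. *Pmp22* was higher by 3.25 (SE 0.71; adjusted p = 0.00510) and *Mbp* by 3.01 (SE 0.72; adjusted p = 0.00832, and 0.0791 without e14.5 replicate 2). *Vim* was the exception, with 164 and 177 CPM on p0 plates and 133 and 140.3 on e14.5 plates (0.27; SE 0.58; adjusted p = 0.761). On the second e14.5 plate *Apoe* had 0 UMIs in 94 wells, which allows up to 3.30 CPM and a share of wells with a UMI of up to 3.19%. Genes of other lists moved in the same comparison: 8 of 14 satellite, 3 of 8 myelin, 4 of 7 connective tissue, 3 of 5 immediate early and 4 of 6 proprioceptor genes were higher in p0, and 0, 0, 0, 0 and 1 lower. Of 9 sensory neuron genes 4 were higher and 2 lower, and of 3 endothelial genes 1 was higher and 0 lower. None of the 3 red blood cell genes and the 1 macrophage gene tested was called. Their part in the values of the 6 genes was not tested.

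Among kept wells alone, where 27.8% of the genes were called, *Fabp7* (5.56; SE 0.75; adjusted p = 0.00015) and *Sparc* (3.69; SE 0.98; adjusted p = 0.0130) were still higher in p0 than at e14.5. Without the 8 wells of p0 cluster 3 *Fabp7* remained called (2.68; adjusted p = 0.0366) and *Sparc* did not (0.25; adjusted p = 0.925). The fitted values of *Apoe* (5.81; SE 0.83) and *Mbp* (1.70; SE 0.57) are given without a test, and were 3.64 and 1.51 without those wells. *Vim* was lower there (-1.54; SE 0.48; adjusted p = 0.0272, and -2.25 with adjusted p = 0.00517 without those wells), with 52.5 and 78.6 CPM on the p0 plates and 131 and 140.3 on the e14.5 plates. *Pmp22* was not called (1.43; SE 1.08; adjusted p = 0.343). Of the 6 genes *Vim* alone was thus higher in kept e14.5 wells than in kept wells of any later plate.

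The 1 left-out e14.5 well (replicate 1, 9020 UMIs) stood above the kept e14.5 wells for *Apoe* and *Fabp7* only. It held 2661 CPM of *Fabp7* (24 UMIs), 1885 of *Apoe* (17 UMIs), 333 of *Vim* (3 UMIs) and 111 of *Sparc* (1 UMI), with 0 UMIs of *Mbp* and *Pmp22*. The highest kept e14.5 wells held 95.3 CPM of *Fabp7*, 93.8 of *Apoe*, 649 of *Vim* and 233 of *Sparc*. With 1 such well there is no left-out against kept comparison at this stage. In the 169 kept e14.5 wells no well held all 4 of *Apoe*, *Fabp7*, *Sparc* and *Vim*, and in 151 of them thinned to 7000 UMIs *Vim* had a UMI in 52.8% ± 3.04 (SD, n = 2 plates). The genes most like *Vim* at e14.5 were *Bud31* (mean r 0.272 over 2 plates), *Ranbp1* (0.268) and *Cystm1* (0.259), none of them in the adult list, and all at a low r.

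Within the kept wells the 6 genes differed between the deposited clusters, which were built on the same counts and are described without a test. In adult, *Vim* averaged 92.7 CPM over the 51 wells of cluster 1 and 13.7 over the 42 wells that the annotation sets apart from its 5 clusters. *Pmp22* ran the other way, 4.34 CPM in cluster 1 and 87.0 in the wells set apart, with 7.23, 19.1, 31.8 and 19.4 in clusters 2 to 5. Adult clusters 2 and 4 had wells on replicates 1 and 2 alone, and *Pmp22* in cluster 4 was 11.8 on the first and 74.2 on the second, while cluster 5 ran from 7.59 to 72.5 over the 5 plates. On each of the 5 plates *Vim* was higher and *Pmp22* lower in cluster 1 than in the wells set apart. *Mbp* was highest in cluster 4 (24.3 CPM; 28 wells, 10.8 CPM on replicate 1 and 52.7 on replicate 2), against 1.93 in cluster 1, which on replicate 5 held 11.5. *Apoe* ranged from 189 CPM in cluster 4 to 398 in cluster 3, but its order differed between plates: on replicate 3 it was 518 in cluster 1 and 225 in cluster 3, and on replicate 4 270 and 391. In p12, *Pmp22* was 76.9 CPM in cluster 1 and 63.1 in cluster 3 (128 on replicate 1 and 18.0 on replicate 2) against 8.05 in cluster 2 and 0 in the 8 wells of cluster 5, and *Vim* was 78.5 and 90.5 in clusters 2 and 5 against 4.45 in cluster 1. In p0, 1 cluster of 8 kept wells (cluster 3) held 1679 CPM of *Apoe*, 1470 of *Fabp7*, 239 of *Sparc* and 255 of *Vim*, against 51.2, 27.4, 2.50 and 33.6 in the 35 wells of cluster 1. The *Apoe* mean of those 8 wells lay below both p0 plates of left-out wells (1913 and 2314) and their *Fabp7* mean between them (1335 and 1569). At e14.5, *Vim* was 179, 109, 154 and 135 CPM in clusters 1 to 4.

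**Figure D5:**
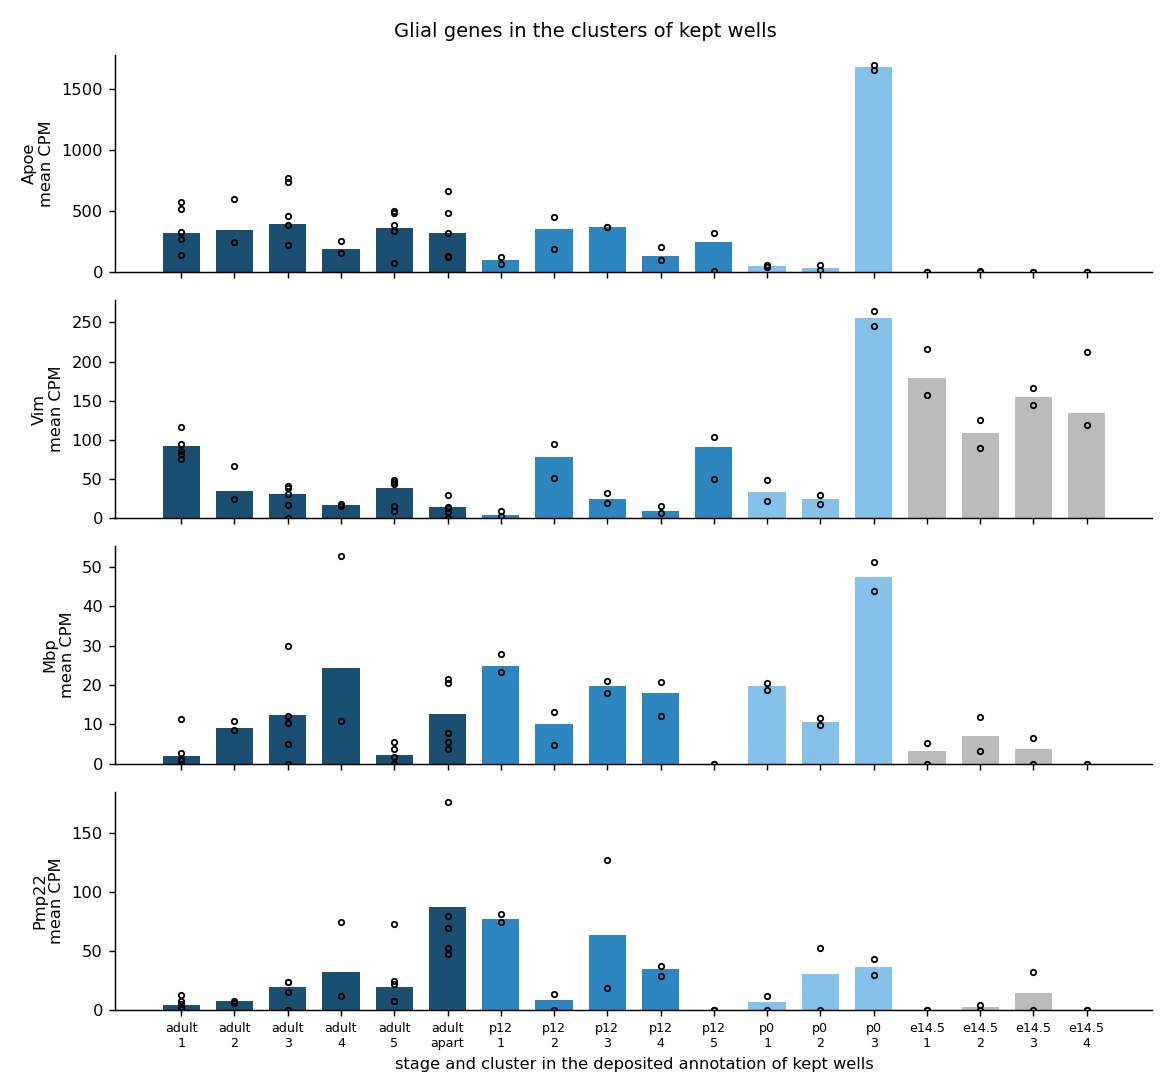
Mean CPM of the glial genes over the kept wells of each deposited cluster, by stage, with the adult wells set apart by the annotation drawn as their own group. Over all plates together *Pmp22* is highest in the adult wells set apart (87.0), though on replicate 5 cluster 5 was higher (72.5 against 47.5), and low in adult cluster 1 (4.34), which has the highest *Vim* of the adult groups (92.7), and p0 cluster 3 stands out for *Apoe* (1679).

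Other genes of the same cell types, from a list of satellite glia genes that does not hold the 6, moved with them. Of 14 satellite genes tested, 12, 11 and 8 were higher in left-out wells of adult, p12 and p0 (beside 8.81%, 4.92% and 2.05% of all genes), with median log2 differences of 4.23, 3.57 and 2.08 against -0.03, -0.04 and -0.01 over all genes tested. *Sox10*, the transcription factor of the glial lineage, was higher by 4.77, 3.96 and 3.13, and *Kcnj10*, the potassium channel of satellite glia, by 5.16, 4.30 and 3.99. *S100b*, often used as a glial marker, was lower by edgeR at all 3 stages (-0.16, -0.24 and -0.91; adjusted p = 0.0418, 0.011 and 6.44e-06). Of the 14 myelin and Schwann genes, 7 were abundant enough to test, and 4, 5 and 3 were higher, beside the same shares of all genes and in wells that satellite and Schwann cell genes had chosen. *Mal* rose by 4.72, 4.25 and 3.11, *Cnp* by 2.27 and 2.15 with 0.57 (adjusted p = 0.382) in p0, and *Prx* was called in p12 alone (5.50; adjusted p = 0.00962, against 0.901 and 0.299 in adult and p0), though the difference between stages itself did not pass (-5.29; adjusted p = 0.382 for adult against p12, and 2.51; adjusted p = 0.886 for p12 against p0). The summed level of the 14 myelin genes was 658, 535 and 423 CPM in left-out wells and 113, 66.4 and 84.3 in kept wells, with *Ugt8a* at 0 throughout.

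Genes of other cells moved with the 6 as well. Against the same 8.81%, 4.92% and 2.05% of all genes called higher, 5, 5 and 4 of 7 connective tissue genes tested were higher in left-out wells and 1, 0 and 0 lower, *Col1a2* being higher by 4.20, 4.32 and 3.76, and the whole list of 10 summed to 94.0, 236 and 225 CPM in left-out wells (plate ranges 63.4 to 109, 132 to 352 and 216 to 235) and 21.5, 19.3 and 32.5 in kept wells (13.4 to 34.3, 4.36 to 38.9 and 29.4 to 35.6), with *Pdgfra* at 0 except in adult left-out wells. *Sparc* and *Vim* are also made by connective tissue cells, and the part of those cells in their levels was not tested. Of 5 immediate early genes, 5, 4 and 4 were higher, *Fos* by 2.01, 1.41 and 1.92. Of 9 sensory neuron genes, 6, 6 and 3 were lower, *Nefh* by -0.50, -0.42 and -0.45, and of 6 proprioceptor genes 2, 2 and 0 were, beside 6.48%, 3.4% and 0.681% of all genes called lower. The fall of the neuronal genes was thus small beside the rise of the glial genes. Of 3 red blood cell genes, 3 were higher in adult and 0 in p12 and p0, though the difference between stages was called for 0 of 3 in either pair of stages (adjusted p of at least 0.426, by edgeR), and the 1 endothelial and 1 macrophage gene tested were not called at any stage.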

How the data were processed

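Per the labels and the study's methods, the authors aligned reads to mm10 (GRCm38) with STAR (version not given in the sources used here), split them by well barcode, collapsed them by UMI and deposited UMI counts per gene and well for each plate, not normalized, with a table of the wells kept and their clusters. The 6 genes, the lists of other genes and the tests were chosen with earlier results of these data known. Wells with at least 2000 genes above 0 were used, and CPM was computed from the deposited counts over all genes of a well. Plate UMIs ranged from 915750 to 5554918, and kept wells had medians of 8929.5 to 61464.5 UMIs per plate, so that a gene at a few CPM rests on a few molecules. Counts summed by plate and status (sums of at least 2 wells), or by plate, were tested with edgeR 4.0.16 in R 4.3.3 (filterByExpr, TMM, quasi-likelihood test), called at an adjusted p under 0.05. The comparison of left-out with kept wells had a term for each plate, since both sums of a plate come from 1 library, and the e14.5 plates gave it nothing, having 1 left-out well. Correlations used log10(CPM + 1) within plates, in Python 3.11.15 with numpy 2.4.6 and scipy 1.17.1. Sequences came from RefSeq windows on GRCm38.p6. Named were the 6 genes and, for each, the 3 genes with the highest mean r over adult plates (and at e14.5), with predicted genes skipped and some genes not reported here. Wells named singly were chosen after their values were seen. The fits were tested on simulated data, where for adult left-out against kept wells (12632 genes) 77.7% of log2 changes of 1 and 100% of log2 changes of 2 were recovered with 5.41% false calls, and for adult against p12 (14648 genes) 71.6% and 100% with 3.39%. The simulated counts had the same spread for every gene and no differences between plates beyond their totals and the changes put in. Recovery can be lower for genes that vary between plates, as *Apoe*, *Sparc* and *Vim* did in p12. Alternatives were DESeq2 1.42.0, its size factors, library size alone, no filter on low counts, limma 3.58.1 on mean CPM, thinning to 7000 UMIs, other limits on wells and sums, no plate term, kept or left-out wells alone, and each plate left out. Leaving out pairs of plates, and leaving out the 8 kept wells of p0 cluster 3, were added after seeing the data. No doublet caller was run.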

Additional observations from a re-analysis of the deposited data

Results flagged for a closer look

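In adult, replicate 5 lay far above the other 4 plates for *Fabp7* over all wells (1846 CPM), for *Fabp7* in kept wells (131 CPM) and for *Apoe* in kept wells (651 CPM). Replicate 1 lay far above the others for *Pmp22* in adult left-out wells (114 CPM). In p12, r of *Apoe* and *Vim* on replicate 1 (0.79) stood apart from the other 3 plates. These 5 stood out of 94 groups examined, and chance alone marks about 1 in 20.

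The difference of *Fabp7* between left-out and kept wells was larger in p12 than in p0 by 1.76 on the log2 scale, the only tested member for which the difference between stages passed. Without the 8 kept wells of p0 cluster 3 it was -1.12 (adjusted p = 0.472, by edgeR).

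Wells with fewer than 2000 genes, which entered no comparison, held UMIs of some of the 6 genes. Pooled over 30 adult wells (39316 UMIs), *Apoe* stood at 13786 CPM, *Fabp7* at 2111, *Sparc* at 1068, *Vim* at 636, *Mbp* at 102 and *Pmp22* at 203. Pooled over 14 p12 wells (2181 UMIs), *Apoe* stood at 11463 CPM (25 UMIs), *Fabp7* at 1834 (4 UMIs), *Sparc* at 1376 (3 UMIs) and *Pmp22* at 459 (1 UMI), with *Vim* and *Mbp* at 0. Over 45 p0 wells (7972 UMIs) *Apoe* stood at 1882 (15 UMIs) and *Fabp7* at 1254 (10 UMIs), and the other 4 genes had 1 UMI each. In 22 e14.5 wells (50706 UMIs), *Apoe* stood at 78.9 CPM (4 UMIs), *Sparc* at 118 (6 UMIs) and *Vim* at 177 (9 UMIs), with *Fabp7*, *Mbp* and *Pmp22* at 0. These wells were shallow, with medians of 886.5, 126.5, 153 and 2374.5 UMIs in adult, p12, p0 and e14.5.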

How the results depend on the processing

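Of 922 alternative values of the 6 genes' differences, 843 kept their direction and, where tested, their side of the threshold. Of 192 alternative counts of calls, 148 lay within 1.5 times the value reported. For the changes below the cause was not tested, except that thinning and leaving out plates leave fewer molecules or samples. Pairs of plates, and the 8 kept wells of p0 cluster 3, were left out as alternatives chosen after seeing the data. Without those 8 wells the p12 against p0 difference of left-out against kept wells was -1.12 for *Fabp7* (1.76 with them), -2.53 for *Sparc* (0.97) and -0.37 for *Vim* (0.38), none of them called by edgeR. In kept wells alone without them, *Sparc* was 0.16 for adult against p12 and *Vim* -2.25 for p0 against e14.5.

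The count of genes called between left-out and kept wells, 1931 in adult, was 1107 with DESeq2, 433 with wells thinned to 7000 UMIs and 1060 without adult replicates 1 and 2. In p12, 1050 became 585, 170, 240 without p12 replicates 1 and 2 and 671 without replicates 3 and 4, and ranged from 577 (without replicate 2; 642 without replicate 1) to 1125 when 1 plate was left out. In p0, 345 became 147 and 62, and ranged from 114 (without p0 replicate 2; 123 without replicate 1) to 369. Plate was the block that paired the sums of left-out and kept wells, since both came from 1 library, and without this replicate block the counts were 734, 499 and 111 (687, 493 and 108 of them higher). The *Pmp22* call was then lost in p12 (adjusted p = 0.176) and in p0 (adjusted p = 0.0966), by edgeR, as it was in p12 after thinning (adjusted p = 0.18).

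The difference between stages of left-out against kept wells gave 39 calls for adult against p12, and 23 with DESeq2, 106 with no filter on low counts, 12 after thinning, 20 without p12 replicates 3 and 4 and 28 to 61 with 1 plate left out (61 without adult replicate 5). For p12 against p0, 32 became 13, 88, 9, 13 without p12 replicates 1 and 2 and 7 to 33 (7 and 12 without p0 replicates 2 and 1, and 21, 18 and 20 without p12 replicates 2, 3 and 4). Without the replicate block edgeR called 0 in both, with 414 and 392 genes at an unadjusted p under 0.05, and *Fabp7* was not called for p12 against p0. Nor was it with DESeq2 (1.72; adjusted p = 0.163). None of the adult against p12 differences that turned sign was called. *Fabp7* (0.27) was -0.073 after thinning, -0.20 without p12 replicates 1 and 2 and -0.020 to 0.55 with 1 plate left out. *Pmp22* (0.34) was -0.019 without adult replicates 1 and 2 and -0.0017 to 0.64. *Sparc* (0.35) was -0.29, -0.00021 without p12 replicates 1 and 2, -0.0071 without adult replicates 1 and 2 and -0.059 to 0.50. *Vim* (0.10) was -0.021 with no filter, -0.22 without p12 replicates 1 and 2 and -0.34 to 0.29.

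Between stages over all wells, 2292 calls for adult against p12 became 701 after thinning, 1278 with limma on mean CPM, 1244 in left-out wells alone and 3781 without p12 replicates 1 and 2. For p12 against p0, 3102 became 1231 after thinning and 1101 to 3292 with 1 plate left out (1101 and 1320 without p0 replicates 2 and 1). For p0 against e14.5, 4114 became 2176 and 1956 to 4333 (1956 and 2229 without p0 replicates 1 and 2, and 2464 and 2068 without e14.5 replicates 1 and 2). With no filter on low counts edgeR also called *Mbp* (-0.79; adjusted p = 0.0161) and *Pmp22* (-0.71; adjusted p = 0.0231) for adult against p12, and *Apoe* (1.46; adjusted p = 0.00233) and *Pmp22* (0.93; adjusted p = 0.0291) for p12 against p0.

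For adult against p12 these values turned sign: *Apoe* (0.11) was -0.52 without p12 replicates 3 and 4 and -0.31 to 0.47 with 1 plate left out. *Fabp7* (-0.21) was 0.38 without p12 replicates 1 and 2 and 0.092 without adult replicates 1 and 2, and *Mbp* (-0.79) was 0.017 without p12 replicates 1 and 2. *Sparc* (-0.06) was 0.032 after thinning, 0.20 in kept and 0.43 in left-out wells alone, 0.44 with limma, 1.53 without p12 replicates 1 and 2, 0.10 without adult replicates 1 and 2 and -0.35 to 0.32 with 1 plate left out. *Vim* (0.21) was -0.46 without p12 replicates 3 and 4 and -0.028 to 0.60. For p12 against p0, *Fabp7* (0.13) was -1.39 in kept wells, -0.065 with limma, -0.46 without p12 replicates 1 and 2 and -0.067 to 0.30. *Mbp* (0.31) was -0.16 in kept wells and -0.49 without p12 replicates 1 and 2, and *Sparc* (0.71) -0.40 and -0.87. *Vim* (0.06) was -0.019 with library size alone, -0.16 after thinning, -0.50 in kept and -0.071 in left-out wells, -0.52 with limma, -1.28 without p12 replicates 1 and 2 and -0.33 to 0.29. For p0 against e14.5, *Vim* (0.27) was -1.54 in kept wells.

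The mean r over the 15 pairs of the 6 genes, 0.532 in adult, 0.530 in p12 and 0.540 in p0, was 0.414, 0.328 and 0.341 after thinning, 0.050, 0.201 and 0.317 in kept wells and 0.419, 0.394 and 0.274 in left-out wells, and 0.574 in p0 with log10(CPM + 10). The summed level of the 6 genes at e14.5, 185 CPM, was 116 as a median over wells.

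*Mbp* and *Pmp22* rest on few molecules, on average 1.88 and 2.44 UMIs in an adult left-out well, and a gene at 0 on an e14.5 plate can be up to about 3 CPM. Stage goes with plate, and e14.5 also with the reporter allele.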

Other observations

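The same 96 barcodes were used on every plate. Across wells of the same barcode, r of *Apoe* between 2 adult plates averaged -0.003 over 10 pairs of plates, that of *Fabp7* -0.018, and in p12 (6 pairs) they averaged -0.035 and -0.028.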
